A study of Mus musculus with 12 samples.

Results

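Phospholipase C (PLC) enzymes were followed in the skin of mice with an atopic dermatitis-like disease, on a normal or a high-fat diet. All genes of the beta, gamma, delta and epsilon PLC subfamilies that were listed by symbol (Plcb1, Plcb2, Plcb3, Plcb4, Plcg1, Plcg2, Plcd1, Plcd3, Plcd4 and Plce1) were taken from the gene counts, and each of these 10 genes matched 1 row of the 23282 entries. Skin RNA came from male C57BL/6J mice, 5 weeks old at the start, with 1 library per mouse. The AD group (n = 5) received a normal diet and the HF + AD group (n = 7, labelled AD+OB) a high-fat diet with 60.0 kcal% fat, for 10 weeks in all. Dorsal skin of both groups was painted with 0.5% 2,4-dinitrochlorobenzene (DNCB), a contact allergen, 3 times per week for the last 6 weeks, so by the labels all 12 mice shared DNCB and the groups differed in diet. The deposited tables of the HF + AD mice are numbered 4, however, a number that the series' design gives to a high-fat group with DNCB that also received an agent named GHJGS. The labels, which were followed here, and the paper name no such agent for these mice, and the sources used here do not settle whether they received it. Mice without DNCB were not analysed here, and the model is a hapten-induced dermatitis in a single inbred strain and sex. RNA was measured with QuantSeq, which reads the 3′ end of each mRNA. The comparison of HF + AD with AD asks whether diet-induced obesity went with other levels of PLC mRNA in the diseased skin.

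PLC enzymes cut the membrane lipid phosphatidylinositol 4,5-bisphosphate into a pair of messengers, inositol trisphosphate (IP3), which opens calcium stores, and diacylglycerol, which activates protein kinase C. The subfamilies differ in what switches them on. Beta enzymes are activated by G protein-coupled receptors through Gq and G beta-gamma subunits, gamma enzymes by tyrosine kinases downstream of growth factor and antigen receptors, delta enzymes mainly by calcium, and the epsilon enzyme by small GTPases such as Ras. In skin, calcium entry and PLC activity accompany keratinocyte differentiation, and mice that lack Plcd1 lose hair, while Plcg2 is known from mast cells, B cells and myeloid cells.

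The summed level of the 10 PLC genes was alike in the 2 groups. The shares of Plcb1, Plcg1 and Plcg2 in that sum did not overlap between groups, while those of the other isoforms did. Sums and shares are given as values without a test. In CPM (read counts scaled to a common library total, here adjusted by the trimmed mean of M values, TMM), the 10 genes summed to 140 ± 10.1 (SD, n = 5) in AD and 136 ± 6.47 (SD, n = 7) in HF + AD, with ranges of 125 to 151 and 126 to 144. The gamma genes made up 6.01% ± 3.31 of that sum in AD and 13.8% ± 2.32 in HF + AD, and the delta genes 71.2% ± 4.55 and 60.7% ± 6.24. Higher levels in HF + AD were measured for Plcg2, Plcg1 and Plcb1, and a lower one for Plcd1, the isoform with the most reads. None of these differences passed the adjusted test across all genes in edgeR, in which Plcg1 was left out for low counts.

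The libraries of the groups also differed in a way that touches each of these results. Totals were similar, at 9746937 to 11688979 counts in AD and 10726845 to 13462434 in HF + AD, but 13100 to 15063 entries had a read in AD against 15522 to 16677 in HF + AD, without overlap (two-sided exact permutation test, p = 0.00126, the smallest that 792 splits allow). An estimate of how many counts each RNA molecule gave, from the share of zeros at moderate levels, was 20.4 ± 9.61 (SD, n = 5) in AD and 5.64 ± 1.27 (SD, n = 7) in HF + AD. A gene at a few CPM therefore rested on fewer molecules in AD, most of all in AD mice 1 and 2, with 32.2 and 29.2 counts per molecule. The group and this library difference fall on the same mice and cannot be told apart. Markers of basal keratinocytes and of fibroblasts were abundant in all 12 libraries at 3280 to 10300 CPM for each list summed over its genes. The p-values below measure the spread between these mice.

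The promoters of the 4 genes whose levels differed most clearly are shown first, each as the stretch of up to 250 bases before the annotated start, 5′ to 3′ on the gene's strand. Capitals mark the GC box, GGGCGG or its reverse complement CCGCCC, a motif bound by Sp family factors. The sequences are from RefSeq on GRCm38.p6, at chr2:160731060-160731299 (plus strand) for Plcg1, chr8:117498025-117498274 (plus) for Plcg2, chr2:134785914-134786066 (plus) for Plcb1 and chr9:119093503-119093752 (minus) for Plcd1.
Plcg1: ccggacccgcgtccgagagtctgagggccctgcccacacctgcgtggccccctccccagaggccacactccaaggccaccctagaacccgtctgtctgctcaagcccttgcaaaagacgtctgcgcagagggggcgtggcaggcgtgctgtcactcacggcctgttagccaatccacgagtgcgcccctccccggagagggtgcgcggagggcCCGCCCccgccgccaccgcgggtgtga
Plcg2: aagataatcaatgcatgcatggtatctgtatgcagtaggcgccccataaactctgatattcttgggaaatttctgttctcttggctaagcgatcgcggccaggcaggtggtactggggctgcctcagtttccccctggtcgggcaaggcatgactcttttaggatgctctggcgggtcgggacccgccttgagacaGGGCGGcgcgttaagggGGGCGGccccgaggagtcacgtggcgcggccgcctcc
Plcb1: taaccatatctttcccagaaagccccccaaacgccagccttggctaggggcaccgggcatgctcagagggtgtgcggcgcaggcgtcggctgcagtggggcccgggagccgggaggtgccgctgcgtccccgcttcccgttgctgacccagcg
Plcd1: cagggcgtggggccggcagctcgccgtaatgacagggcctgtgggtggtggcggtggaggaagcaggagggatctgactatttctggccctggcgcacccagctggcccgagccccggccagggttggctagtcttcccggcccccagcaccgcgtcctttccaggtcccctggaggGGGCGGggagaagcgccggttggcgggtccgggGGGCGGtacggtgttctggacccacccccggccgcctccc

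All 10 genes had a promoter in the RefSeq table. A GC box stood on either strand within the 250 bases of at least 1 listed promoter of 7 of the 10 genes, against 33.0% of the 32536 promoters of that length (Plcb4, Plcd1 and Plcd4 have 2 promoters each, which gives them more chances). The box of Plcb1 lies downstream of the stretch shown. The TATA motif TATAAA was in none of the 10, against 12.3% of all promoters, and TTTCC, the core of NFAT sites, was in 7 of 10, against 55.7%. CACGTG was found only at Plcg2 (6.04% of all promoters), TGACTCA, an AP-1 motif, only at Plcb3 (4.45%) and GAGGAAG, a PU.1 motif, only at Plcd1 (10.7%). These matches describe letters in a window and were not tested against the levels.

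**Figure D1:**
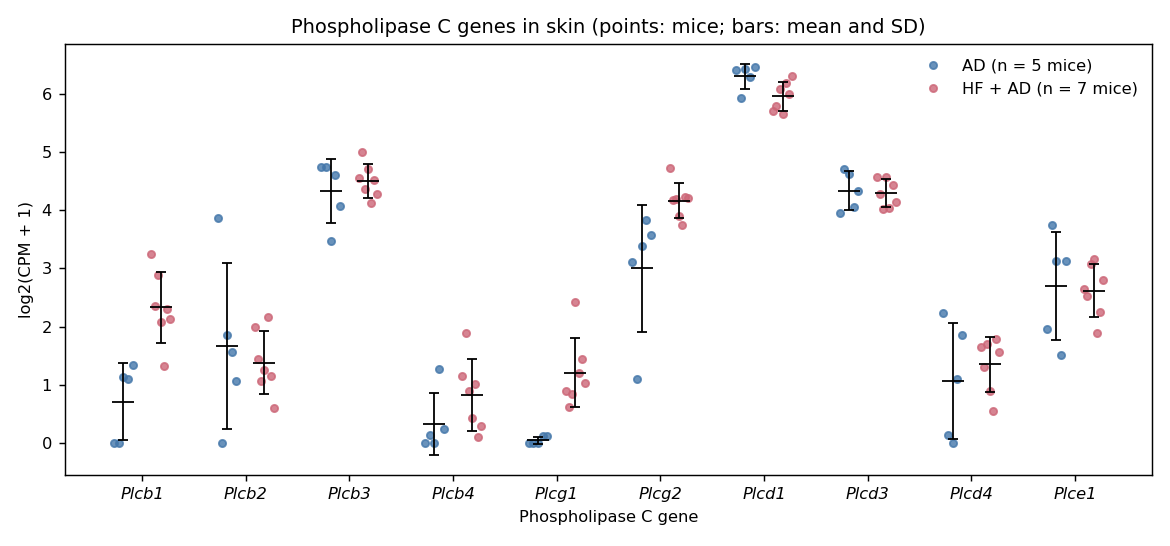
Level of each PLC gene in log2(CPM + 1) on the y axis, by gene on the x axis. Each point is a mouse, blue for AD (n = 5) and red for HF + AD (n = 7), and bars are the mean and SD. Plcg1 is the only gene whose groups do not overlap, and Plcd1 is the highest gene in every mouse.

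Both gamma isoforms, which answer tyrosine kinases, had higher levels in HF + AD by the exact test on single genes, while edgeR with its filter called neither. Plcg2 (chromosome 8, 117498291 to 117635142, plus strand, GRCm38) carries signals of antigen and Fc receptors in blood-derived cells. Its levels in the AD mice were 7.62, 1.14, 9.49, 13.3 and 10.9 CPM. In the HF + AD mice they were 25.4, 17.0, 17.2, 13.9, 12.4, 17.7 and 17.5 CPM. The groups overlapped only where HF + AD mouse 5 lay below AD mouse 4, and AD mouse 2 stood far below the other AD mice. In estimated molecules, the reads of Plcg2 came to 2.61 and 0.377 in AD mice 1 and 2. They came to at most 12.3 in any AD mouse and to 18.2 to 81.1 in HF + AD mice. The Plcg2 levels of AD mice 1 and 2 are therefore only loosely known. Mean Plcg2 was 8.49 ± 4.6 (SD, n = 5) and 17.3 ± 4.1 CPM (SD, n = 7), a ratio of 2.04. On the log2(CPM + 1) scale the mean difference was 1.17 (two-sided exact permutation test, p = 0.00253, with 6 of 7 HF + AD values higher than any in AD). In edgeR the log2 fold change was 1.03 with a standard error of 0.409 and an adjusted p of 0.123, so it was not called. Without AD mouse 2 the level difference was 0.69 (exact permutation p = 0.00606).

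Plcg1 (chromosome 2, 160731300 to 160775760, plus strand) is the broadly expressed gamma enzyme, used by growth factor receptors and by the T cell receptor. In AD mice it had 0, 0, 0, 1 and 1 counts. In HF + AD mice the counts were 11, 7, 11, 50, 14, 21 and 14. Every HF + AD mouse therefore exceeded every AD mouse, but HF + AD mouse 4 alone held far more reads than any other. The mean was 0.0358 ± 0.049 CPM (SD, n = 5) in AD and 1.52 ± 1.31 CPM (SD, n = 7) in HF + AD, and the difference on the log2(CPM + 1) scale was 1.16 (two-sided exact permutation test, p = 0.00126). Of 18605 entries with a read, 4.39% did not overlap between groups and 2.44% were higher in HF + AD without overlap, as Plcg1 was. Among the 2345 entries with at most 1 count in each AD mouse, 2.35% were. A count of 0 allows 3 counts, or up to 0.308 CPM in an AD library, but divided by the counts per molecule the reads of Plcg1 come to at most 0.0833 molecules in any AD mouse and 1.81 to 7.92 in HF + AD mice. For molecules rather than reads, a total of 3 is 3.17 to 8.99 CPM in a single AD library. Over the pooled AD libraries it is 0.948 CPM, above the 0.847, 0.542 and 0.797 CPM of HF + AD mice 1, 2 and 3. The level in AD is therefore known only to be low, and not to lie below every HF + AD value. The filter on low counts left Plcg1 out of the edgeR test. Without the filter its adjusted p was 0.0271, with a fitted log2 fold change of 5.0 that depends on the prior count. The end of Plcg1 overlaps Zhx3, on the opposite strand, which had 3 to 154 counts in AD and 29 to 61 in HF + AD (edgeR log2 fold change -0.65, adjusted p = 0.616), and whether counting used strand is not given in the sources used here.

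As a share of a mouse's reads of the 10 PLC genes, both gamma genes and Plcb1 separated the groups. Plcb1 had 0 to 1.05% in AD and 1.19 to 6.0% in HF + AD. By level, Plcg1 alone of the 10 did not overlap, against 4.39% of all entries with a read. Shares were not computed for other gene sets, so how often they separate these groups is not known. Plcg2 made up at most 9.68% in AD and at least 9.86% in HF + AD, with means of 5.99% ± 3.29 and 12.7% ± 2.54. Summed, the gamma genes reached 8.52 ± 4.63 CPM (SD, n = 5, 1.14 to 13.3) in AD and 18.8 ± 3.73 CPM (SD, n = 7, 13.8 to 26.3) in HF + AD. Markers of the blood-derived cells that use these enzymes were read in the same libraries. The macrophage and dendritic cell list (7 of 8 genes found) summed to 130 to 447 CPM in AD and 151 to 394 in HF + AD, with the same mean of 239, and none of its 7 tested genes was called. Mast cell markers (7 genes found, 6 tested, none called) summed to 103 to 227 and 103 to 293 CPM. T cell markers (6 genes found, 4 tested, none called) reached 1.01 to 19.9 and 4.12 to 7.14 CPM. B cell markers (5 genes found, 0 tested) stayed at 0 to 3.81 and 0.0725 to 2.15 CPM, with Pax5 at 0 in every mouse. Neutrophil markers (4 of 5 found, 2 tested, none called) lay at 0.706 to 2.81 and 1.63 to 13.3 CPM. For these, 5 of 7 HF + AD mice exceeded every AD mouse. The part of these cells in the gamma levels was not tested. In RNA of whole skin, fewer cells of a type and less RNA per cell cannot be told apart.

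**Figure D2:**
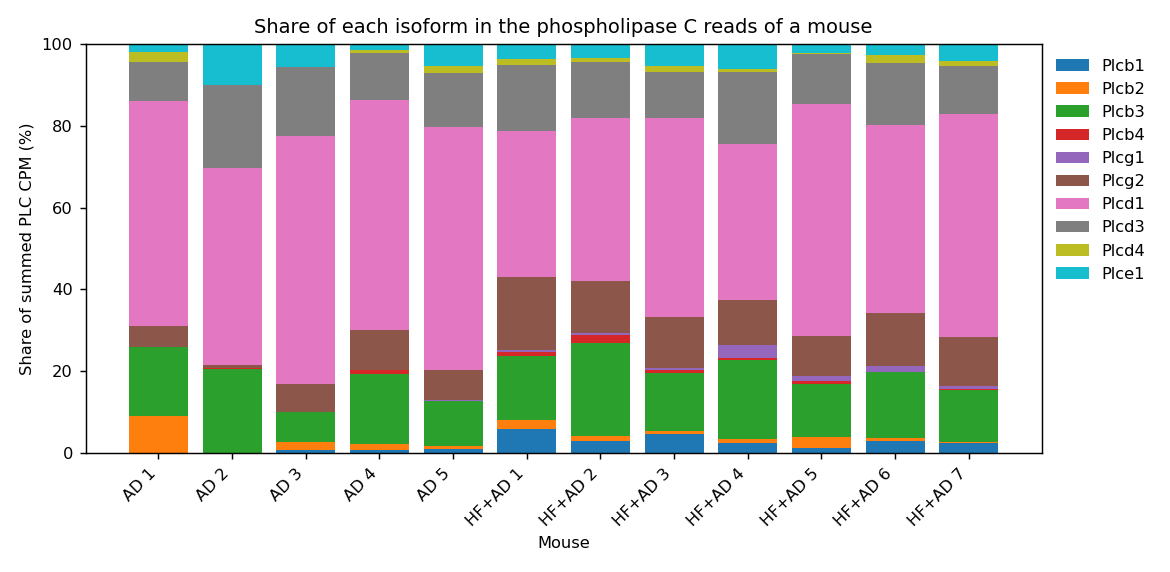
Share of each isoform in the summed PLC CPM of a mouse (y axis, percent), 1 bar per mouse on the x axis. The Plcg2 segment is between 0.913% and 9.68% in the AD mice and between 9.86% and 17.8% in the HF + AD mice, and the Plcd1 segment is the largest in every bar.

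Among the beta isoforms, Plcb1 alone differed between the groups by the exact test on levels. Plcb1 (chromosome 2, 134786067 to 135475258, plus strand) couples Gq-linked receptors to IP3 and is also found in nuclei. It had 0, 0, 12, 13 and 17 counts in the AD mice and 111, 53, 88, 37, 16, 48 and 45 in the HF + AD mice. In CPM these were 0, 0, 1.21, 1.15 and 1.54 against 8.54, 4.11, 6.38, 3.22, 1.5, 3.91 and 3.38. HF + AD mouse 5 alone fell within the AD range. In AD mice 1 and 2, which had 0 counts, 3 molecules would come to 8.26 and 8.99 CPM. These zeros therefore do not place the 2 mice below most HF + AD values. The log2(CPM + 1) level was 0.72 ± 0.66 (SD, n = 5) in AD and 2.33 ± 0.62 (SD, n = 7) in HF + AD, a difference of 1.61 (two-sided exact permutation test, p = 0.00253). The edgeR log2 fold change was 2.49, with a 95% interval of 0.55 to 4.43 and an adjusted p of 0.099. DESeq2 (Wald test), limma-trend and a two-group t test on log2(CPM + 1) each called Plcb1, and the other 19 of 22 alternatives did not, with adjusted p from 0.0154 to 0.291 over all of them. That t test was adjusted over all tested genes, while the paper compared Plcb1 by the Mann–Whitney U test. The end of Plcb1 overlaps an annotated antisense gene, 9630028H03Rik, which had 0 counts in every AD mouse and 0 to 11 in HF + AD mice. In estimated molecules, Plcb1 summed to 3.21 over the AD libraries and 79.6 over the HF + AD libraries. The study singled out Plcb1 and Plcg1 from these same libraries, so their values here are not independent evidence of their direction.

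The other beta isoforms overlapped widely between groups. Plcb3 (chromosome 19, 6952325 to 6976470, minus strand), a widely expressed Gq effector, was the main beta isoform, at 25.7, 25.7, 10.1, 23.3 and 15.9 CPM in AD mice. It lay at 22.4, 30.8, 19.6, 25.0, 16.5, 21.9 and 18.3 CPM in HF + AD mice. The edgeR log2 fold change of Plcb3 was 0.13, with an interval from -0.41 to 0.67. That interval leaves room for a modest change either way but not for one of the fitted size of Plcb1. Plcb2 (chromosome 2, 118707517 to 118728438, minus strand), known from leukocytes and taste cells, gave 13.6, 0, 2.62, 1.94 and 1.09 CPM in AD, so AD mouse 1 alone carried most of its reads. Its HF + AD values ran from 0.526 to 3.46 CPM, and the log2 fold change of -1.12 had an interval from -3.02 to 0.78. Plcb4 (chromosome 2, 135659011 to 136014593, plus strand), best known from cerebellum and retina, had 0, 1, 0, 16 and 2 counts in AD and 1 to 35 in HF + AD, so AD mouse 4 held nearly all its AD reads (log2 fold change 1.41, -1.1 to 3.92, and 3.51 without that mouse). Plcb1 and Plcb4 lie on the same strand 183752 bases apart.

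The delta isoforms, the calcium-driven arm, were the bulk of the reads of the 10 listed PLC genes. Plch2, an eta isoform outside that list, lay at 37.6 CPM in AD and 46.7 CPM in HF + AD. Plcd1 alone among them had a lower level in HF + AD by the exact test, and edgeR called none. Summed, the delta genes reached 85.4 to 109 CPM in AD and 72.9 to 97.1 in HF + AD, with overlap. Plcd1 (chromosome 9, 119071527 to 119093502, minus strand) is the isoform of epidermis and hair follicles. It was measured at 83.2, 60.0, 84.6, 77.1 and 86.7 CPM in the AD mice. The HF + AD mice had 50.8, 54.1, 66.8, 49.4, 71.5, 62.6 and 78.5 CPM. AD mouse 2 lay well below the other AD mice, and 3 of 7 HF + AD mice lay below all AD mice. The means were 78.3 ± 10.8 (SD, n = 5) and 62.0 ± 11 CPM (SD, n = 7). On the log2(CPM + 1) scale the difference was -0.34 (two-sided exact permutation test, p = 0.0404), and 9 of 16 alternatives, most of them leaving out a mouse, gave a p above 0.05, up to 0.0848. In edgeR the log2 fold change was -0.34 with an interval from -0.66 to -0.01 and an adjusted p of 0.182. A correction for GC content, chosen after seeing the data, moved the log2 fold change to -0.58 and lowered the adjusted p to 0.0363. None of the other 23 alternatives called Plcd1. The same correction moved the log2 fold change of Plcd3 from -0.06 to -0.39 (adjusted p = 0.317). Plcd1 had the most counts of the family in every library, with 19.9 to 79.9 estimated molecules in AD mice and 90 to 185 in HF + AD mice.

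Epithelial markers stood as follows beside Plcd1. Basal keratinocyte markers summed to 3280 to 4990 CPM in AD and 5770 to 10300 in HF + AD, so that every HF + AD mouse exceeded every AD mouse. Among single entries with a read, 2.44% were higher in HF + AD without overlap. Krt5 and Krt14 were called higher in edgeR (2 of 4 tested). Hair shaft keratins summed to 1260 to 2790 and 2350 to 3510 CPM, and 3 of 5 were called higher. None of the 3 suprabasal keratinocyte markers tested was called, at 175 to 1240 and 81.2 to 1000 CPM. Plcd1 was thus lower where the summed basal and hair shaft markers were higher. Summed suprabasal, pigment cell and skeletal muscle markers had lower means in HF + AD, as Plcd1 did. These were 581 and 478, 2360 and 1490, and 1720 and 1040 CPM in AD and HF + AD. The part of cell make-up in the level of Plcd1 was not tested.

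Plcd3 and Plcd4 did not differ detectably. Plcd3 (chromosome 11, 103070304 to 103101658, minus strand), which overlaps in function with Plcd1, lay at 14.5, 25.3, 23.6, 15.6 and 19.2 CPM in AD and at 15.2 to 22.7 CPM in HF + AD. Its log2 fold change was -0.06 (-0.53 to 0.41), and its end overlaps Gm26668 on the opposite strand, which was not analysed here. Plcd4 (chromosome 1, 74542888 to 74567794, plus strand), known from sperm, had 41, 1, 0, 13 and 29 counts in AD and 5 to 31 in HF + AD. Its end overlaps Zfp142 on the opposite strand, which had 52 to 233 and 173 to 229 counts. The log2 fold change of Plcd4, 0.12, had an interval from -1.86 to 2.11, wide enough to hold a change of several fold in either direction. The epsilon gene Plce1 (chromosome 19, 38481109 to 38785030, plus strand), which binds Ras, ranged from 1.86 to 12.4 CPM in AD and from 2.71 to 7.91 CPM in HF + AD (log2 fold change -0.27, -1.31 to 0.76).

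**Figure D3:**
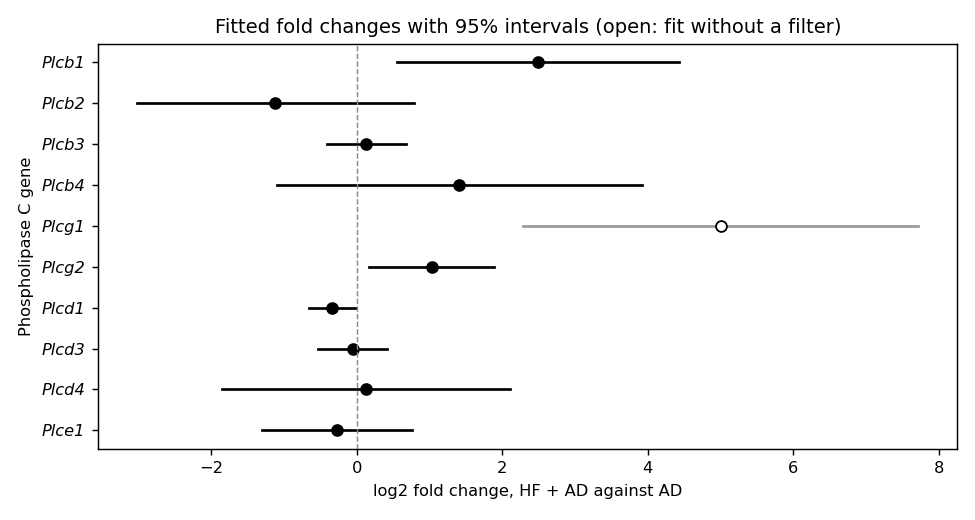
Log2 fold change of HF + AD against AD in edgeR on the x axis, for each PLC gene on the y axis, with 95% intervals. The open point for Plcg1 (5.0) is from the fit without a filter on low counts. The intervals of Plcb1, Plcg2 and Plcd1 lie to the side of 0, and those of the other tested genes span 0.

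The share of PLC genes called was below that of all genes in the adjusted edgeR test and near or above it by the other counts, each of which rests on 10 genes or fewer. In edgeR, 9.20% of the 14163 tested genes were called at an adjusted p under 0.05, 4.43% higher and 4.77% lower, and 0 of the 9 tested PLC genes were. At an unadjusted p under 0.05, 3 of the 9 passed (Plcb1 and Plcg2 higher, Plcd1 lower), against 25.1% of all tested genes. By the exact permutation test on levels, 4 of the 10 passed, 3 higher and 1 lower, against 23.3% of the 18605 entries with a read (14.3% higher and 9.06% lower). DESeq2, limma-trend and the two-group t test each called 1 PLC gene (of 7 with an adjusted p in DESeq2 and of 9 in the others). They called 15.6%, 11.0% and 6.39% of all genes, and edgeR without a filter called Plcg1 and 6.54% of all. Calls also followed depth, with 1.84%, 7.03% and 18.7% of genes called in the lower, middle and upper of 3 equal bins of mean count, and the 9 tested PLC genes fell 5, 3 and 1 into these bins. Zero counts were found in 9 of the 50 values of PLC genes in AD mice and in 0 of 70 in HF + AD mice. Zeros were also more frequent in AD over all 23282 entries, of which 13100 to 15063 had a read in AD libraries and 15522 to 16677 in HF + AD libraries.

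The order of the isoforms was similar in both groups at the top and unsettled at the bottom. QuantSeq gives about 1 read site per transcript, so CPM was compared between genes without division by length. In AD mice the order by mean CPM was Plcd1, Plcb3, Plcd3, Plcg2, Plce1, Plcb2, Plcd4, Plcb1, Plcb4 and Plcg1. Among these neighbours, only Plcd1 and Plcb3, and Plcd3 and Plcg2, had ranges apart. In HF + AD mice Plcb1 moved up to sixth place and Plcg1 above Plcb4. There, Plcd1 and Plcb3, and Plcg2 and Plce1, had ranges apart. Plcd3 lay above Plcg2 in 5 of 5 AD mice, by 1.34 ± 1.33 on the log2(CPM + 1) scale (SD, n = 5). AD mouse 2, with Plcd3 at 4.71 and Plcg2 at 1.10, had the widest gap and raised that mean. In HF + AD, Plcd3 lay above Plcg2 in 4 of 7 mice, by 0.12 ± 0.3 (SD, n = 7).

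**Figure D4:**
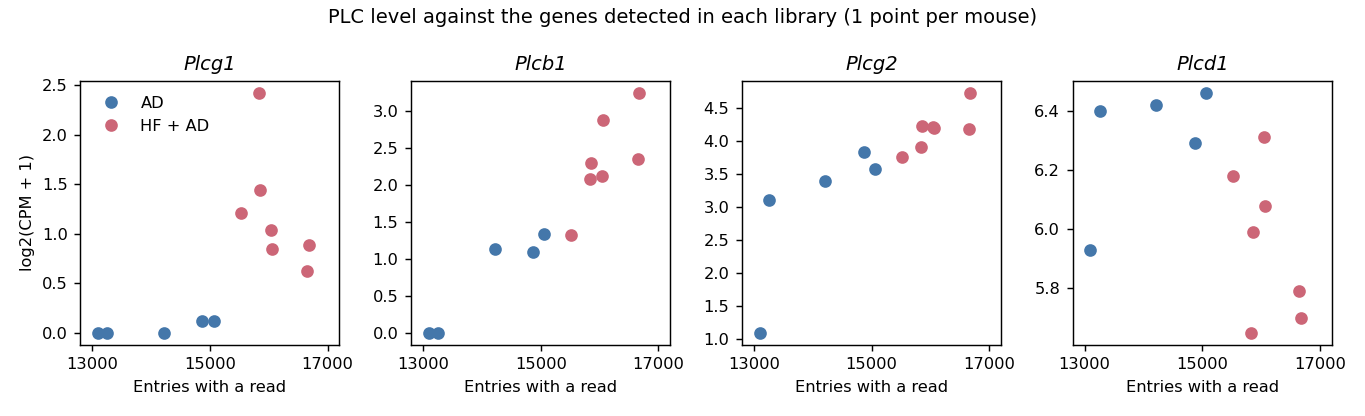
Level of Plcg1, Plcb1, Plcg2 and Plcd1 in log2(CPM + 1) on the y axis against the number of entries with a read in that library on the x axis. Each point is a mouse, blue for AD and red for HF + AD. All 7 HF + AD libraries lie to the right of all 5 AD libraries, so group and detection move together.

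By profile over the 12 mice, with each gene scaled to mean 0 and SD 1, the genes most like Plcd1 among 13200 tested genes with a mean count of at least 20 were Ctdsp2, Stag2 and Kif26b, with root mean square differences of 0.388, 0.39 and 0.416. Those most like Plcb1 were Cep131, Klf13 and Ifi30, at 0.271, 0.29 and 0.346. The likeness describes these 12 libraries and includes the difference between groups.

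Around the PLC enzymes, 132 further genes were listed by role, 113 were tested and 9 were called (4 higher and 5 lower), which is 7.96% against 9.20% of all genes. The median log2 fold change of the 113 was 0.09, against 0.02 over all tested genes. Of the other PLC-like genes (8 listed, 5 tested), none was called, and Plch2, an eta isoform with the most reads among them, lay at 37.6 CPM in AD and 46.7 CPM in HF + AD (log2 fold change 0.31, adjusted p = 0.339). Plcxd1 and Plcxd2, which share only a catalytic domain, had log2 fold changes of -0.15 and 0.66 (adjusted p of 0.777 and 0.360).

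Upstream, 2 of the 16 tested genes that supply the PLC substrate were called, or 12.5% against 9.20% of all genes. Pip5k1a, which makes phosphatidylinositol 4,5-bisphosphate, rose from 142 ± 18.2 (SD, n = 5) to 198 ± 13.6 CPM (SD, n = 7) with no overlap (adjusted p = 0.0191 in edgeR, called in 22 of 24 alternatives). Pi4k2b, a kinase of the step before it, fell from 59.7 ± 14.4 to 34.7 ± 8.31 CPM, also with no overlap (adjusted p = 0.0253, called in 17 of 24 alternatives, up to 0.0772). Of all entries with a read, 4.39% did not overlap between groups. Of the other called pathway genes, given below, F2r, Kdr, Atp2a3 and Dgka did not overlap either, while Marcks, Prkcq and Dgkz did. Cdipt and Pitpna, which make and carry phosphatidylinositol, were not called, at log2 fold changes of 0.33 and 0.24.

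On the receptor side, 1 gene of each arm was called, or 5.56% of the tested Gq arm and 4.76% of the tested tyrosine kinase arm, both below the 9.20% of all genes. In the Gq arm, which drives the beta enzymes (18 tested), F2r, the thrombin receptor, rose from 12.8 ± 4.56 (SD, n = 5) to 34.2 ± 10.8 CPM (SD, n = 7), a log2 fold change of 1.42 with a standard error of 0.277 (adjusted p = 0.00811 in edgeR, and called in 24 of 24 alternatives). The most abundant genes of that arm, Gnb1, Gnaq and Rgs2, had log2 fold changes of -0.42, 0.32 and -0.14 and were not called. In the tyrosine kinase arm, which drives the gamma enzymes (21 tested), Kdr, a receptor of vascular endothelial growth factor that recruits Plcg1, rose from 7.93 ± 1.41 to 16.5 ± 4.31 CPM (adjusted p = 0.0243, with no overlap, called in 21 of 24). Kdr is also an endothelial marker, and Cdh5 of the same list was called higher, with the list summing to 23.4 to 44.0 CPM in AD and 33.3 to 84.3 in HF + AD. The part of endothelial RNA in the level of Kdr was not tested. Fgfr2, Grb2 and Vav3, the most abundant of that arm, were not called, at -0.16, 0.11 and -0.35.

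Downstream, 1 of 28 tested IP3 and calcium genes (3.57%) and 4 of 25 diacylglycerol genes (16.0%) were called, against 9.20% of all genes. Atp2a3, a pump that refills calcium stores, fell from 29.1 ± 7.9 (SD, n = 5) to 18.2 ± 1.23 CPM (SD, n = 7) (adjusted p = 0.0449 in edgeR, called in 8 of 24 alternatives). The more abundant Atp2a2 and Ppp3ca were not called, at log2 fold changes of 0.02 and 0.21. On the diacylglycerol side, Marcks, a protein kinase C substrate, fell from 1440 ± 370 to 880 ± 101 CPM (adjusted p = 0.0118, called in 22 of 24 alternatives), and Prkcq, a protein kinase C of T cells and muscle, from 27.4 ± 7.18 to 14.4 ± 5.35 CPM (adjusted p = 0.0401, called in 12 of 24 alternatives). Of the diacylglycerol kinases, which turn diacylglycerol into phosphatidic acid, Dgkz rose from 32.2 ± 13.0 to 61.7 ± 10.7 CPM (adjusted p = 0.0216, called in 21 of 24) while Dgka fell from 272 ± 27.1 to 198 ± 36.4 CPM (adjusted p = 0.0475, called in 9 of 24 alternatives). Mgll, a lipase on the same list, lay at 1000 and 966 CPM and was not called. Skeletal muscle markers summed to 1150 to 2300 CPM in AD and 643 to 1800 in HF + AD. Of these markers 2 of 7 were called lower, against 4.77% of all tested genes. Their part in the levels of Prkcq and Atp2a3, which muscle or blood cells also express, was not tested.

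**Figure D5:**
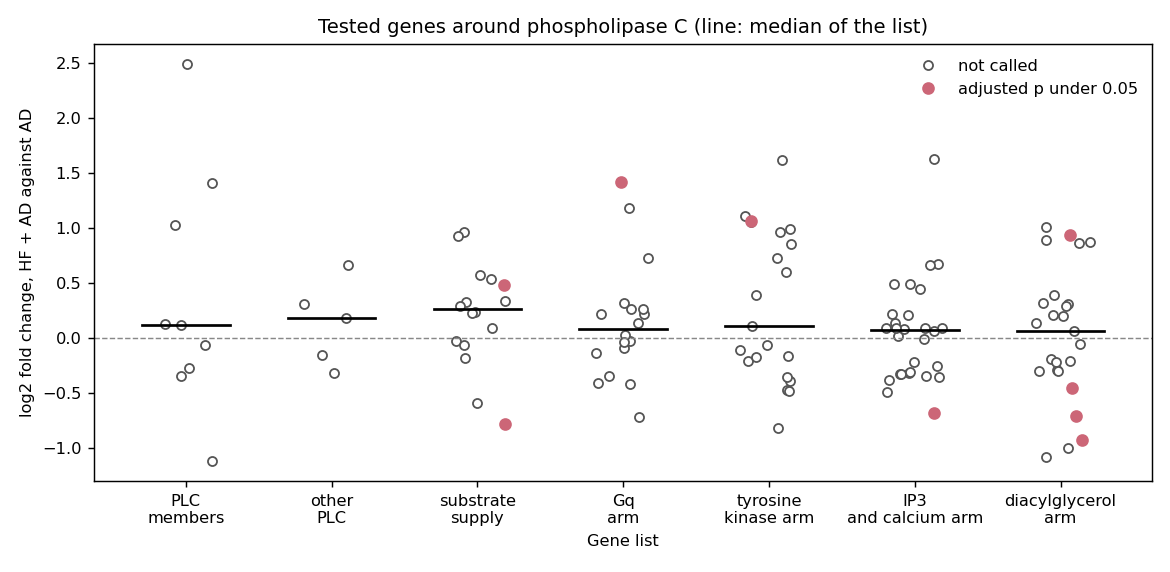
Log2 fold change of HF + AD against AD in edgeR (y axis) for the tested genes of each list (x axis), 1 point per gene, filled where the adjusted p was under 0.05, with a line at each list's median. No PLC gene is filled, and 9 of the 113 other genes are, 4 above 0 and 5 below.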

How the data were processed

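Skin RNA was sequenced at the 3′ end (QuantSeq) in 5 AD and 7 HF + AD mice. The authors deposited unnormalized counts of reads by symbol, with 1 table for each mouse. The submitters' processing notes name Bowtie2, bedtools and mm10, without roles or versions, and edgeR was the study's normalization. Counting settings, strand and removal of duplicate reads are not given in the sources used here. No molecular identifiers are described, so PCR copies count as reads, and limits from counts cover counting error only. Of the 23282 entries, 4677 had no read, and 35 repeated symbols were kept apart.

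All genes were fitted with edgeR 4.0.16 in R 4.3.3 (TMM, filterByExpr, quasi-likelihood test on group alone, p-values adjusted by Benjamini–Hochberg for the 14163 genes tested, threshold 0.05), with TMM factors of 0.944 to 1.04. Levels are log2(CPM + 1), with a pseudocount of 1. Their differences were tested by exact permutation of the 792 splits, two-sided and unadjusted. Other fits used DESeq2 1.42.0 and limma 3.58.1 (prior count 2), and other steps Python 3.11.15, NumPy 2.4.6, SciPy 1.17.1 and matplotlib 3.10.9. A further fit was a two-sided two-group t test with pooled variance on log2(CPM + 1), adjusted by Benjamini–Hochberg. Counts per molecule were fitted in each library to how many genes were at 0, where 10 to 200 counts would follow from the group's remaining libraries. GENCODE M21 (GRCm38) gave positions and GC content, and RefSeq the promoters.

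The PLC genes, the 6 pathway lists and the 14 marker lists were chosen with earlier results of these data known. Named genes are the PLC genes, from each list the called genes (at most 5) and the 3 with the highest mean CPM, and the 3 profiles most like Plcd1 and Plcb1. A gene under this rule was tested and counted but is not reported here. Marker genes, and the genes given as overlapping PLC genes, fall outside this rule and were named after their values were seen. Alternatives covered normalization, filters, tests, the replicate number, counts per molecule, the pseudocount, a rank statistic and leaving out each mouse. A GC correction in 20 bins and leaving out AD mice 1 and 2 together were added after seeing the data. The fit was tested on simulated counts with known changes. With counts per molecule in the simulation, 125 to 151 changed genes were called, of 193 to 197 tested. Without them, 191 to 198 were called, of 191 to 199 tested. The fit thus missed more changes under counts per molecule, and 0 calls among PLC genes do not show equal levels. Of the marker lists not named in the report, adipocyte markers summed to 97.4 to 710 CPM in AD and 70.1 to 548 in HF + AD and Schwann cell markers to 78.0 to 173 and 95.5 to 143, with none called. Pigment cell markers, given above by their means, summed to 1800 to 2800 and 870 to 1880 CPM. Of these, Dct and Pmel were called lower (2 of 4 tested, against 4.77% of all tested genes).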

Additional observations from a re-analysis of the deposited data

Results flagged for a closer look

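Of 22 checks of a PLC gene or family value within a group for a mouse far from its group, 2 stood out, where chance gives about 1 in 20. Plcb4 in AD mouse 4, at a log2(CPM + 1) level of 1.27, stood above the other AD mice, with a gap to the nearest of them of 0.811 of the group's range. Plcg2 in AD mouse 2, at 1.10, stood below the other AD mice, with a gap of 0.734 of the range. AD mouse 2 was also the library with the fewest entries with a read, 13100, and without it the Plcg2 difference between groups kept its direction.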

How the results depend on the processing

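Over all genes, 1303 calls became 192 with the replicate number as a block, and 639 to 1461 when leaving out each mouse, lowest without HF + AD mouse 2 (639), 1 (686) and 4 (794) and AD mouse 2 (803). The numbers did not pair the mice (r of deviations of same-numbered mice from -0.0815 to 0.0389), so the block shows only a shared number. The 0 calls among PLC genes became 1 without a filter (Plcg1) and with DESeq2, limma-trend or the two-group t test (Plcb1). They also became 1 with the GC correction (Plcd1) and without AD mice 1 and 2 (Plcg1). Leaving out each mouse gave 0 to 1, with Plcg1 called without any single AD mouse because it then passed the filter. With at most 1 count in any AD mouse, Plcg1 passed through its HF + AD reads alone. The filter and the test then rest on the same difference, so these calls of Plcg1 add no separate evidence. The 9 calls among pathway genes became 16 with DESeq2, 1 with the replicate block (F2r, adjusted p = 0.0318), 5 without AD mice 1 and 2, and 3 to 10 when leaving out each mouse (3 without HF + AD mouse 2, 5 without mouse 1 or 4). Plcb1, Plcg1 and Plcg2 levels kept their direction and an exact p under 0.05 in all 16 alternatives, at most 0.00649, 0.00606 and 0.00606. That of Plcb4 passed only without AD mouse 4 (exact permutation p = 0.0394). The family total differed by -3.83 CPM, 0.588 with library totals, and -7.56 to -0.912 when leaving out each mouse.

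Some fold changes that were not called changed sign, and the cause was not tested. For Plcb2, at -1.12, the value was 0.18 with the replicate block and -1.44 to 0.32 when leaving out each mouse (0.32 without AD mouse 1), and its level difference was 0.06 with a pseudocount of 0.1 and -0.70 to 0.26. For Plcb3 it was -0.10 with the GC correction and -0.04 to 0.24 when leaving out each mouse, with level differences of -0.04 to 0.28. Leaving out each mouse gave -0.15 to 0.05 for Plcd3 (levels -0.14 to 0.05), -0.20 to 0.76 for Plcd4, -0.51 to 0.10 for Plce1 (levels -0.37 to 0.19), -0.32 to 0.10 for Plcxd1, -0.26 to 0.05 for Rgs2, -0.02 to 0.07 for Atp2a2 and -0.17 to 0.06 for Mgll. Without AD mice 1 and 2, Plcxd1 was 0.19, Rgs2 0.06 and Atp2a2 -0.02. With the GC correction Grb2 was -0.02 and Atp2a2 -0.04, and with the replicate block Mgll was 0.05. A filter of at least 10 counts in every mouse tested only 5 PLC genes. Plcb4, Plcg1 and Plcd4 had the fewest counts over the 12 mice (101, 130 and 233). In estimated molecules over the AD libraries, Plcg1, Plcb4 and Plcb1 had the fewest (0.165, 1.51 and 3.21).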
